A study of Arabidopsis lyrata subsp. lyrata with 8 samples.

Results

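Expansins and xyloglucan endotransglucosylase/hydrolases (XTHs) are 2 families of secreted cell wall proteins, and their transcripts were compared here between roots and flower buds of Arabidopsis lyrata. The members were taken by name. Of 53 A. thaliana locus codes of alpha-expansins, beta-expansins, expansin-like genes and XTHs, 34 were found in the name of at least 1 gene model of the array, and they gave 36 of its 32386 gene models. The code of XTH18 was carried by 3 models, which are told apart below by the scaffold and model number in their names. The other 19 codes were not analysed here: EXPA2, EXPA6, EXPA8, EXPA9, EXPA15, EXPA16, EXPA17, EXPB2, EXPB4, EXPB5, EXLA3, EXLB1, XTH13, XTH14, XTH17, XTH21, XTH22, XTH23 and XTH24. Genes are named by the A. thaliana symbol of that code, and the roles given are those known from A. thaliana.

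The plants belonged to A. lyrata ssp. lyrata, labelled col 0. They had 7 days of stratification, grew hydroponically and were harvested when healthy and 6 weeks old. This holds for both tissues, and no other treatment is given. Each of the 4 root and 4 flower bud replicates was tissue pooled from 8 to 10 plants, so that no value belongs to a single plant. Every replicate was labelled with 1 dye, Cy3, and hybridised to 1 of the 8 arrays of a custom Agilent slide. Whole roots and whole buds hold many cell types, and a lower signal from fewer cells of a type and from less RNA per cell cannot be told apart.

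A growing plant cell is held in by cellulose fibres tethered by xyloglucan, and it enlarges as that network yields. Expansins loosen the network without cutting it, under the acid conditions that proton pumps set up in the wall. XTHs cut xyloglucan chains and either rejoin them to other chains (transglucosylation) or leave them cut (hydrolysis). In A. thaliana both families are large, and single members are known for particular organs such as root hairs, the root elongation zone, leaves or stamens.

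The flower bud arrays numbered 1 and 2 were closer to each other than repeated spots of 1 probe on the same array (ratio of variances 0.792), and so were those numbered 3 and 4 (0.981). For the other pairs of arrays of 1 tissue this ratio was 5.61 to 23.3. Each close pair was averaged and used as 1 sample, A and B, which left 2 flower bud samples beside 4 root samples. Precision is limited by these numbers, and p-values measure only the spread between these samples. Each tissue filled 1 row of the slide, and a difference between the rows cannot be told apart from one between the tissues. The share of spots well above background was 73.0% to 75.2% in root and 78.9% to 80.5% in flower bud, with 0 spots saturated. Marker genes went with the labels: all 5 root markers and both root hair markers measured were higher in root, 3 and 1 of them well above background on no flower bud array. All 4 flower, 4 anther and pollen and 4 green tissue markers measured were higher in flower bud, of which 1, 2 and 0 were well above background on no root array.

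Levels below are log2 signals from which the array's 75th percentile was subtracted, and they are compared only within a gene model, since probes differ in brightness. A difference is the root mean minus the flower bud mean on that log2 scale, ± its standard error (n = 4 and n = 2), and a negative one means more signal in flower bud. A gene model was called where limma's adjusted p was under 0.05 and the fold at least 2. Where a model was well above background on none of a tissue's arrays, only a lower bound of the fold is given, written "at least N-fold". Its floor is the lowest signal well above background on each array, which is not a detection limit. XTH25 read -7.86 in root replicate 2, above the floor of -8.76 there, without being well above background. The bound thus holds only for the signal as processed here. Every member so bounded had a smaller difference with normexp (described below). Scaling to the spike-in RNAs moved the difference of every member by -0.68, or 1.60-fold towards flower bud, and is named below only where it ends a call or turns a sign. Other alternatives are named where they do so or move a fold by over 1.5 times. Among them, normexp models each spot's signal and its local background and adds an offset of 50 to every corrected signal, which by itself draws the folds of faint signals towards 1; the shares of the offset and of the background in a changed value were not tested.

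Of the 36 gene models, root was the higher tissue for 20 and flower bud for 11, and 5 were called in neither direction. Called were thus 86.1% of them, beside 51.4% of all 26420 gene models tested, made up of 23.7% with more signal in root and 27.7% with more in flower bud. Among the 11623 tested models that carry a locus code the shares were 49.5%, 24.0% and 25.5%. Counted by code, 18 were higher in root, 11 in flower bud and 5 in neither. The median difference was 1.98, beside -0.03 over all models, and the median size of the difference was 2.56, beside 1.08. Differences of at least 16-fold, 4 on the log2 scale, were measured for 10 members towards root and 3 towards flower bud, which is 13 of 36 beside 16.2% of all models. All 36 passed the filter on dim probes. Of them, 29 were well above background on every array. On no root array were 2 (XTH6 and XTH25), and on no flower bud array 2 (XTH20 and the XTH18 model 716). The other 3 were so on some flower bud arrays: EXPA12, XTH12 and another XTH18 model. These 7 members passed the filter through a single tissue, which left little room for the other direction, and each was called towards that tissue. All of them but XTH25 had a measured difference of at least 16-fold. Among the 29, 15 were called higher in root and 9 in flower bud, beside 4910 and 4391 of 21733 such models.

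**Figure D1:**
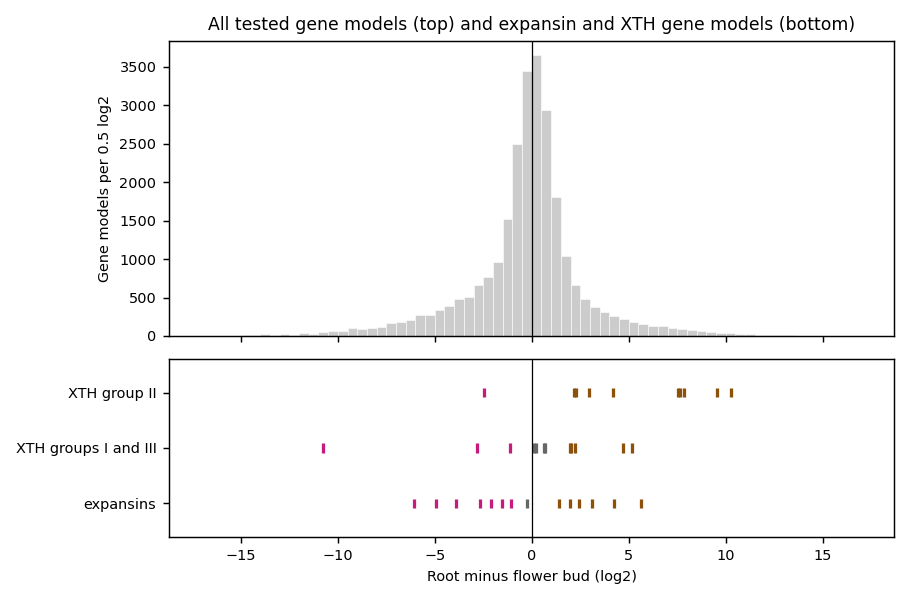
Root minus flower bud difference (log2, horizontal axis) of all 26420 tested gene models as counts per 0.5 log2 (top) and of the 36 expansin and XTH models as 1 tick each (bottom; brown, called higher in root; pink, higher in flower bud; grey, neither). All models centre near 0, the expansins lie on both sides, and 9 of the 10 group II XTH models lie to the right.

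Alpha-expansins, the class best known for acid-induced wall extension, were called in both directions. Of 10 measured, 5 had more signal in flower bud and 4 in root, beside 27.7% and 23.7% of all models. Among those higher in root, EXPA12 passed the filter on dim probes through root alone. The 3 with the largest difference towards flower bud were EXPA5, EXPA1 and EXPA3. The level of EXPA5 (AT3G29030), a gene of organ growth, was -3.41, -3.65, -3.49 and -4.34 in root replicates 1 to 4 and 2.45 and 2.22 in flower bud samples A and B. Root replicate 4 was the lowest and the 2 tissues were far apart. EXPA5 was thus 66.7-fold higher in flower bud, at -6.06 ± 0.28 (adjusted p = 2.94e-06). EXPA1 (AT1G69530), known for its action in the walls of guard cells, had levels of -0.63, -0.68, -0.80 and -1.13 in root and of 4.18 and 4.12 in flower bud. The flower bud samples were nearly alike, and the difference was -4.96 ± 0.17 (adjusted p = 8.65e-07), or 31.1-fold. EXPA3 (AT2G37640) had levels of -3.79, -3.68, -3.62 and -3.04 in root and of -0.17 and 0.87 in flower bud. Its groups did not overlap although sample B exceeded sample A by 1.04, and the difference was -3.88 ± 0.34 (adjusted p = 6.71e-05).

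EXPA11 and EXPA10 also had more signal in flower bud, with differences of -2.66 ± 0.42 (adjusted p = 0.00123) and -1.55 ± 0.27 (adjusted p = 0.00217). EXPA10 is an expansin of leaf and pedicel growth. For both, root replicate 4 was the root sample closest to flower bud: EXPA11 stood at 0.40 there and at -1.10 to -0.82 in root replicates 1 to 3. EXPA4, the alpha-expansin called in neither direction, lay at 2.56 to 3.05 over the root samples and at 2.86 and 3.12 in flower bud. These ranges overlapped, and the difference was -0.22 ± 0.18 (adjusted p = 0.294; 0.05 with equal medians of the arrays).

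Towards root, the leading alpha-expansins were EXPA12, EXPA14 and EXPA20. EXPA12 (AT3G15370) had levels of -2.18, -2.07, -1.97 and -2.76 in root and of -7.75 and -7.97 in flower bud, where 3 of 4 arrays were well above background. It was 49.0-fold higher in root, at 5.61 ± 0.25 (adjusted p = 2.23e-06), but flower bud signals lay close to background and the value was 3.58 with normexp background correction and 6.22 with quantile normalization. EXPA14 (AT5G56320), linked to the emergence of lateral roots, had levels of -1.07, -1.10, -1.31 and -0.85 in root and of -5.67 and -4.94 in flower bud. All root samples lay within 0.45 of each other, and the difference was 4.22 ± 0.24 (adjusted p = 7.22e-06; 3.61 with normexp), or 18.7-fold. For EXPA20 (AT4G38210) the levels were 0.59, 0.75, 0.87 and 1.00 in root and -1.44 and -0.93 in flower bud. That is a difference of 1.99 ± 0.20 (adjusted p = 1.27e-04), or 3.96-fold. EXPA13 was higher in root by less, at 1.40 ± 0.18 (adjusted p = 5.21e-04; 0.73 with an adjusted p = 0.182 when arrays were set to the spike-in RNAs).

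Beta-expansins, the class that in grasses includes pollen allergens, were represented by 2 models of 5 codes, and both were higher in root, beside 23.7% of all models. EXPB1 (AT2G20750) had levels of -0.82, -0.66, -0.56 and -0.59 in root and of -3.52 and -4.04 in flower bud, a difference of 3.13 ± 0.18 (adjusted p = 9.10e-06). EXPB3 (AT4G28250) had levels of 3.66, 3.47, 3.67 and 3.58 in root and of 1.00 and 1.26 in flower bud, at 2.46 ± 0.14 (adjusted p = 8.22e-06). These were 8.75-fold and 5.51-fold differences. The root replicates of EXPB3 had the smallest spread of all 36 members, with an SD of 0.09.

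Expansin-like genes resemble expansins in sequence, but no wall-loosening activity is established for them. Of 4 codes 2 were measured, and both models were higher in flower bud, beside 27.7% of all models. EXLA1 (AT3G45970) had levels of -0.12, 0.27, 0.60 and -0.18 in root and of 2.79 and 1.66 in flower bud. It was the expansin-family model with the largest gap between samples A and B, and its difference was -2.08 ± 0.37 (adjusted p = 0.00211). EXLA2 (AT4G38400) had levels of -2.52, -2.40, -2.02 and -1.96 in root and of -1.46 and -0.88 in flower bud. This was a narrow call at -1.06 ± 0.24 (adjusted p = 0.00722), a 2.09-fold difference. It fell under 2-fold without root replicate 1 (-0.96), without flower bud sample B (-0.77, adjusted p = 0.0592), with quantile normalization (-0.87) and with equal medians (-0.78).

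**Figure D2:**
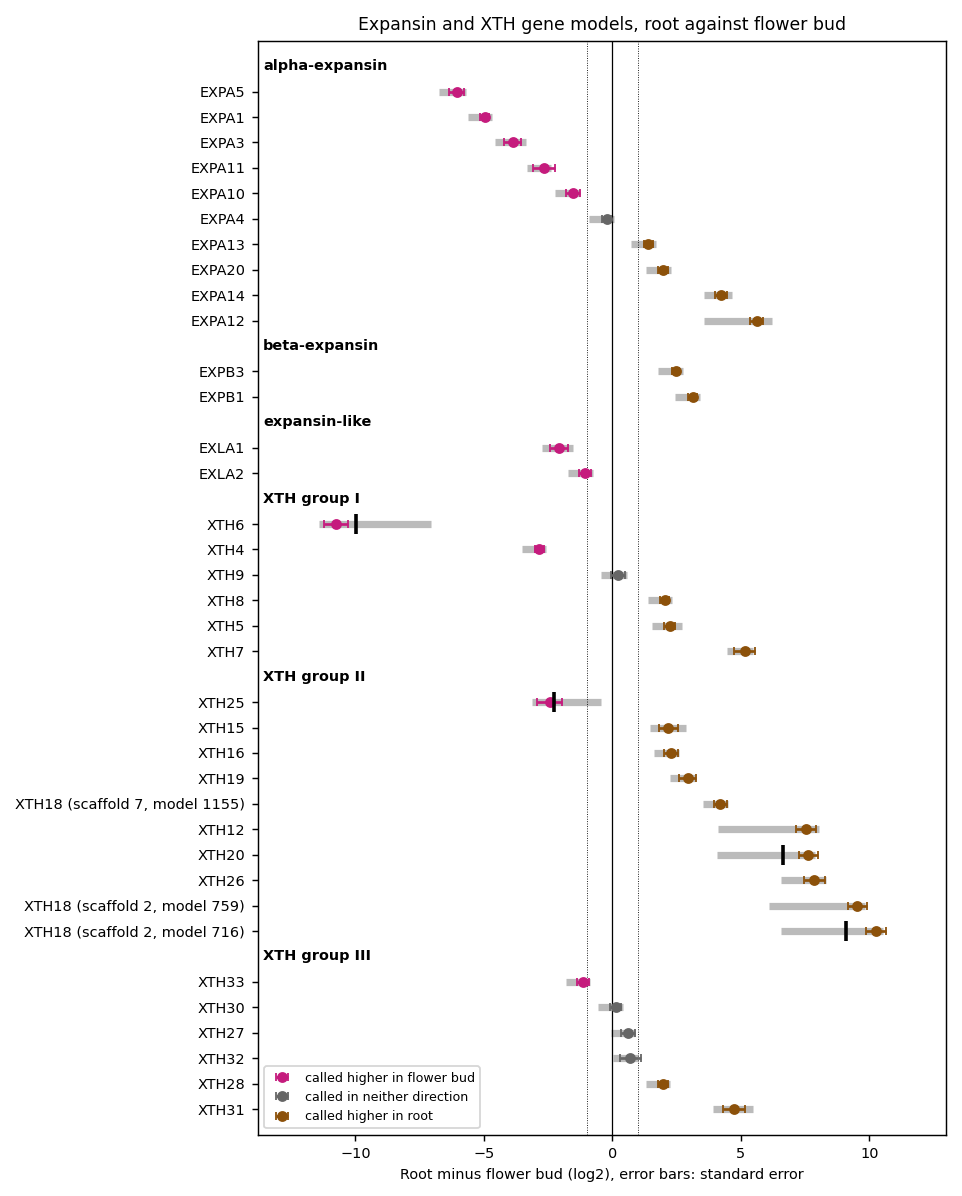
Root minus flower bud difference (log2, horizontal axis) of each expansin and XTH gene model, by class; points are the limma estimate with its standard error (n = 4 root and 2 flower bud samples), grey bands the range over 16 alternative settings, black ticks lower bounds, and dotted lines 2-fold. Alpha-expansins and XTH group I spread to both sides, XTH group II lies mostly to the right, and XTH6 at -10.75 and the XTH18 model 716 at 10.26 are the ends of the range.

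XTHs are divided by sequence into groups I, II and III. Group I was split between the organs. Of 6 models from the listed codes, 3 had more signal in root and 2 in flower bud, beside 23.7% and 27.7% of all models. XTH9 was called in neither direction. XTH10 and XTH11 are outside that list and are given with the further codes below. XTH6 (AT5G65730) had levels of -9.63, -9.75, -9.47 and -8.15 in root, none of them well above background, and of 1.61 and 1.40 in flower bud. It was therefore at least 1021-fold higher in flower bud than in root (adjusted p = 1.96e-06; measured difference -10.75 ± 0.46). The measured difference was -7.07 with normexp, which is smaller than that bound of -10.00 on the log2 scale. XTH6 passed the filter on dim probes through flower bud alone, which left little room for a call towards root. XTH4 (AT2G06850), which acts in growing stems, had levels of 3.78, 3.74, 3.38 and 3.35 in root and of 6.42 and 6.39 in flower bud. Signal was well above background on every array of both organs, with a difference of -2.84 ± 0.18 (adjusted p = 1.28e-05), or 7.18-fold.

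Among the group I models higher in root, XTH7 (AT4G37800) led. Its levels were 5.26, 5.11, 5.24 and 3.95 in root and -0.51 and -0.01 in flower bud, so root replicate 4 stood below the other root samples but still well above flower bud. The difference was 5.15 ± 0.41 (adjusted p = 4.04e-05), or 35.6-fold. XTH5 (AT5G13870) had levels of -2.46, -2.67, -3.03 and -2.74 in root and of -5.18 and -4.74 in flower bud, a difference of 2.24 ± 0.21 (adjusted p = 9.46e-05). For XTH8 (AT1G11545) the levels were 2.38, 2.23, 2.22 and 1.90 in root and 0.01 and 0.26 in flower bud, and the difference was 2.04 ± 0.18 (adjusted p = 6.31e-05). XTH9, a gene of shoot apices and flower buds in A. thaliana, lay at 2.84 to 3.42 in root and at 2.63 and 3.35 in flower bud. Samples A and B lay on either side of root replicates 2 to 4, and the difference of 0.22 ± 0.26 (adjusted p = 0.467) had the opposite sign without sample A (-0.14) and under spike-in scaling (-0.46).

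Group II, which holds most of the XTHs known from roots, was largely one-sided: 9 of its 10 models, from 7 of 8 codes, were higher in root, beside 23.7% of all models. However, XTH12, XTH20 and the XTH18 models 716 and 759 passed the filter on dim probes through root alone, and XTH25 through flower bud alone. For these the filter left little room for the other direction. All 5 models well above background on all 8 arrays were higher in root, beside 4910 of 21733 such models. The median difference of the group was 5.87, or 5.43 with bounded models at their bound. It was 4.09 with normexp, and 2.93 over the 5 models well above background on all 8 arrays (XTH15, XTH16, XTH19, XTH26 and the XTH18 model 1155). The XTH18 code (AT4G30280), in A. thaliana a gene of primary root elongation, was carried by 3 of the 10 group II models. Model 716 on scaffold 2 had levels of 0.85, 0.51, -0.02 and -0.52 in root and of -10.22 and -9.89 in flower bud. No flower bud array was well above background, so it was higher in root by at least 547-fold (adjusted p = 1.08e-06; measured difference 10.26 ± 0.38). With normexp the measured difference was 6.54, smaller than that bound of 9.09. Model 759 on the same scaffold had levels of 0.68, 0.46, -0.07 and -0.59 in root and of -9.13 and -9.71 in flower bud, with a difference of 9.54 ± 0.38 (adjusted p = 1.52e-06; 6.10 with normexp). In flower bud it was well above background on 1 array only, so this fold rests mostly on signals near background. In both models root replicate 1 was the highest and replicate 4 the lowest. The sequences of their probes were not analysed here, and signal shared between near-identical copies was not tested.

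The third XTH18 model, number 1155 on scaffold 7, was well above background on every array. It was higher in root at 4.21 ± 0.25 (adjusted p = 9.54e-06). XTH19, whose locus code is the next one in A. thaliana and whose model number (1154) is the next one on scaffold 7, was at 2.93 ± 0.33 (adjusted p = 2.36e-04). XTH19 is known from roots and from the healing of cut stems. Both neighbours thus went the same way, with flower bud levels of -1.92 and -1.62 for the XTH18 model and of -1.46 and -1.03 for XTH19.

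XTH26 (AT4G28850), an enzyme known from root hairs, had levels of 1.46, 1.40, 1.20 and 0.08 in root and of -6.68 and -6.97 in flower bud. All arrays of both tissues were well above background, and the difference was 7.86 ± 0.41 (adjusted p = 4.94e-06; 6.55 with normexp), or 232-fold. Root hair markers were measured in the same samples: COBL9 was higher in root by 2.34 and RHS18 by at least 504-fold. XTH20, which like XTH19 is known from the healing of cut stems, was well above background on no flower bud array and was higher in root by at least 100-fold (adjusted p = 3.49e-06; measured difference 7.62 ± 0.37). With normexp the measured difference was 4.06, smaller than that bound of 6.65. XTH12 was at 7.54 ± 0.38 (adjusted p = 4.42e-06; 4.12 with normexp). It was well above background on 1 flower bud array, at -7.49, while the other array of the same sample A read -10.10.

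Smaller differences towards root were found for XTH16 at 2.30 ± 0.27 (adjusted p = 3.27e-04) and for XTH15, a shade-induced gene, at 2.17 ± 0.37 (adjusted p = 0.00176). XTH15 stood at 1.36 to 1.77 in root, but at -1.32 in flower bud sample A and 0.06 in sample B. Its difference was accordingly 1.48 without sample A and 2.86 without sample B.

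XTH25 (AT5G57550) was the exception of group II. Its model, number 1669 on scaffold 8, follows that of XTH12, number 1668, and the A. thaliana codes of the pair lie close together. The levels of XTH25 were -9.35, -7.86, -8.12 and -8.42 in root, none well above background, and -5.46 and -6.52 in flower bud. It was higher in flower bud by at least 4.79-fold (adjusted p = 0.00335; measured difference -2.45 ± 0.47). This call was lost with normexp, at -0.46 (adjusted p = 0.105), which is smaller in size than the bound of -2.26, and the value was -1.52 with quantile normalization (adjusted p = 0.0459). XTH12 and XTH25, neighbours by model number, were thus called in opposite directions, with a faint signal in the lower tissue for each.

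Group III, which holds the XTHs known to act as hydrolases, included called and uncalled models: 2 of 6 models were higher in root, 1 was higher in flower bud and 3 were in neither, so 3 of 6 were called beside 51.4% of all models. XTH31 (AT3G44990), an enzyme that hydrolyses xyloglucan, had levels of -0.92, -0.52, -0.54 and -1.16 in root and of -4.76 and -6.26 in flower bud. It was 26.5-fold higher in root at 4.73 ± 0.42 (adjusted p = 7.52e-05), or 5.48 without sample A, 3.97 without sample B and 3.92 with normexp. XTH32 (AT2G36870), the other such hydrolase, lay at -2.17 to -0.76 in root and at -2.20 and -1.73 in flower bud. Its ranges overlapped through root replicate 4, and the difference of 0.69 ± 0.41 was not called (adjusted p = 0.167). Without that replicate the difference was 0.99 (adjusted p = 0.00743), still just under 2-fold. Over the alternative settings it ranged from 0.01 to 0.99 and was never called.

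XTH28 (AT1G14720), known for the growth of stamen filaments, was higher in root. Its levels were 1.58, 1.53, 1.57 and 2.07 in root and -0.43 and -0.13 in flower bud, a difference of 1.97 ± 0.20 (adjusted p = 1.57e-04), or 3.91-fold. XTH33 (AT1G10550), which is held at the plasma membrane, was the one group III model higher in flower bud. It had levels of -0.86, -1.31, -1.57 and -1.53 in root and of -0.18 and -0.19 in flower bud, at -1.14 ± 0.22 (adjusted p = 0.00362; -0.86 with equal medians, which is under 2-fold). XTH27, a gene of leaf vascular cells, lay at 3.19 to 4.14 in root and at 3.13 and 2.98 in flower bud, with a difference of 0.61 ± 0.26 (adjusted p = 0.0740). XTH30 lay at 1.99 to 2.59 in root and at 2.10 and 2.07 in flower bud, with 0.13 ± 0.20 (adjusted p = 0.590). Neither was called, and under spike-in scaling they stood at -0.06 and -0.55; XTH30 was at -0.07 with quantile normalization.

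**Figure D3:**
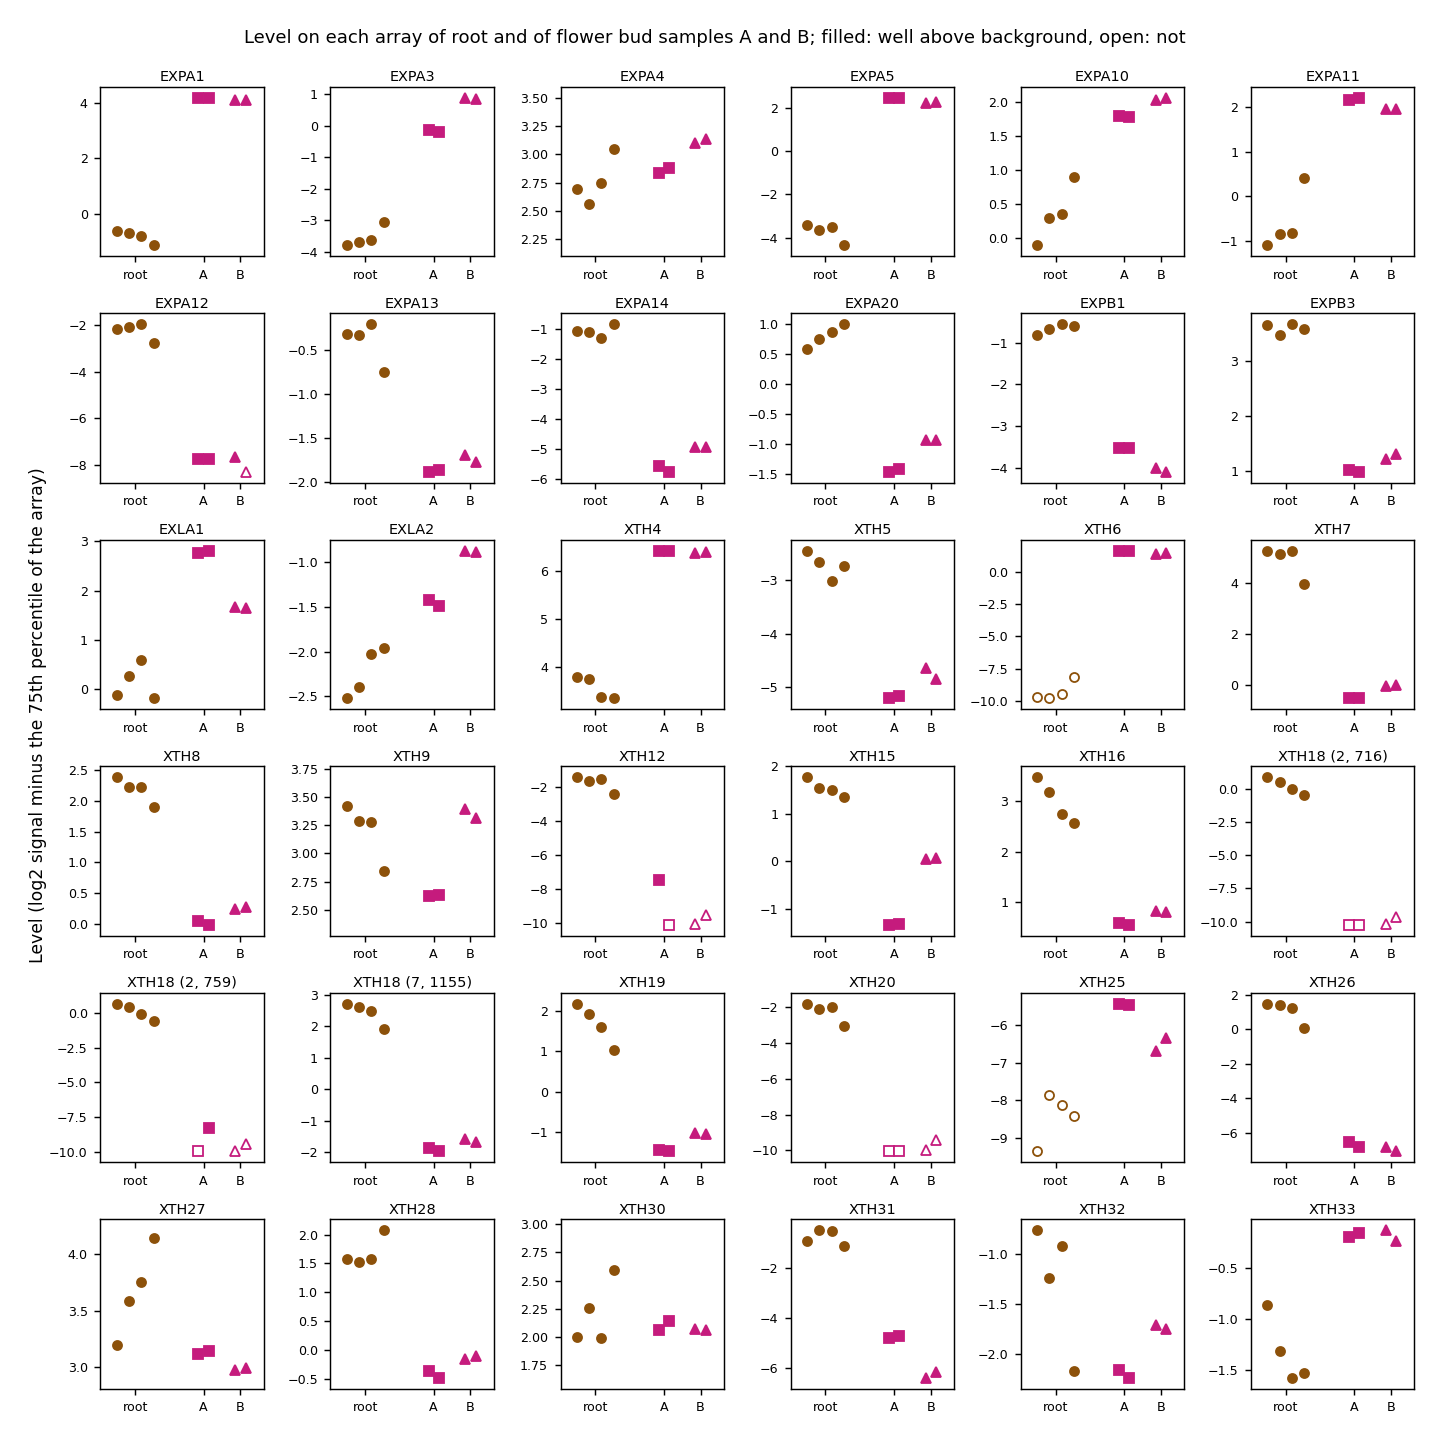
Level of each expansin and XTH gene model (log2 signal relative to the array's 75th percentile, vertical axis with its own range in each panel) on the 4 root arrays (circles), the 2 arrays of flower bud sample A (squares) and the 2 of sample B (triangles); XTH18 models are marked by scaffold and model number. Root and flower bud arrays do not overlap in 32 of 36 panels, and open symbols mark the flower bud arrays of XTH18, XTH20, XTH12 and EXPA12 and the root arrays of XTH6 and XTH25 that were not well above background.

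Across the arrays, the ranges of the 2 tissues did not overlap for 32 of the 36 models, beside 78.9% of all models. The 4 that overlapped were EXPA4, XTH9, XTH30 and XTH32.

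Members also varied within root, with a median SD of 0.34 over the 4 replicates beside 0.23 for all models. The SD ranged from 0.09 for EXPB3 to 0.74 for XTH6, whose root signal was near background. Root replicate 4 was the sample farthest from the root median for 25 of 36 members, beside 52.9% of all models. It was the lowest root sample for 20 members, beside 36.5% of all models, and for 9 of the 10 group II XTHs, which were the 9 higher in root. Its level minus the mean of replicates 1 to 3 was -1.28 for XTH26, -1.25 for XTH7, -1.20 for XTH32, -1.12 for XTH20 and -0.96 for the XTH18 model 716. It was 1.32 for EXPA11 and 1.47 for XTH6, although root signal of XTH6 was not well above background. In all, 12 members lay at least 0.5 below it, beside 15.7% of all models, and 7 at least 0.5 above, beside 14.2%.

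Root replicate 4 was also the dimmest root array, with a 75th percentile of 2541 beside 2960 to 4468, and 73.0% of spots well above background. Some marker levels differed there, most of all those of green tissue. The mean level of the 4 green tissue markers was -2.94 in root replicate 4 and -5.63 to -5.13 in replicates 1 to 3, beside 3.28 and 3.36 in flower bud. The mean of the 2 root hair markers was -0.10 there and 0.65 to 0.97 in the others. RHS18 stood -1.74 from the mean of the others and COBL9 -0.09. The 5 root markers averaged 0.70 in replicate 4 and 0.74 to 0.90 in the others (from -0.83 for BRN1 to 0.85 for CASP1 against the mean of the others), the 4 flower markers -4.95 and -5.40 to -5.25, and the 4 anther and pollen markers -8.12 and -9.15 to -8.42. The part of these shifts and of the dimmer array in the root values of the members was not tested. Without root replicate 4 the counts were still 20 towards root and 11 towards flower bud.

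Within flower bud, samples A and B differed by a median of 0.31 among members, beside 0.17 over all models. At least 2-fold apart were 5 members, beside 5.11% of all models. XTH15 and EXPA3 were higher in sample B, by 1.38 and 1.04. XTH31, EXLA1 and XTH25 were higher in sample A, where B minus A was -1.50, -1.13 and -1.06. These are differences between 2 samples with no replicate behind them. Of all members 20 were higher in B, beside 51.3% of all models. Anther and pollen markers had a mean level of 4.27 in sample A and 4.88 in sample B. B minus A was 1.42 for AMS and 0.88 for GRP19, but 0.12 for AGP11 and 0.03 for VGD1; their part in the differences was not tested.

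**Figure D4:**
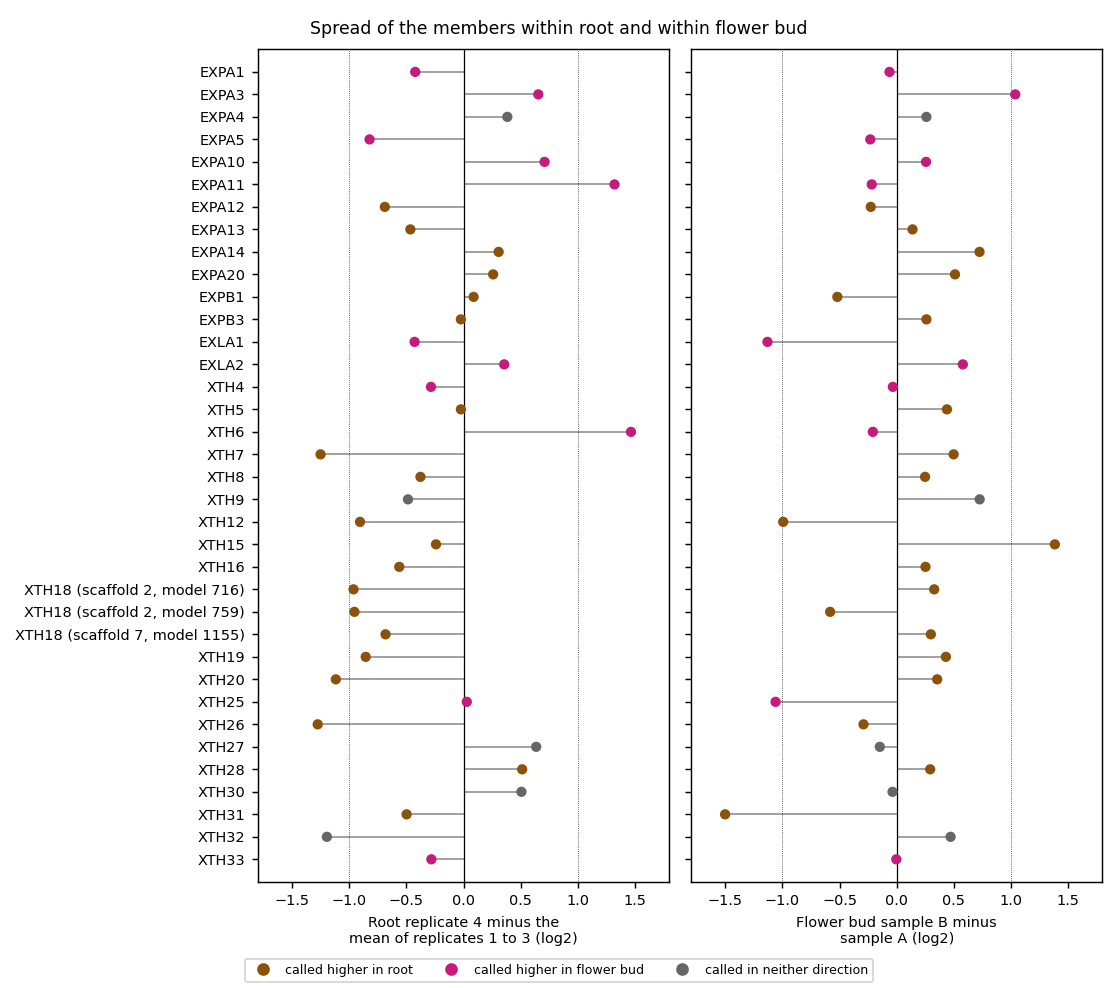
Left, level in root replicate 4 minus the mean of root replicates 1 to 3; right, level in flower bud sample B minus sample A (both log2, horizontal axis), 1 point for each expansin and XTH gene model, coloured by its call between the tissues; dotted lines mark 2-fold. The group II XTH models from XTH12 to XTH20 and XTH26 lie left of 0 in the left panel, and XTH15 at 1.38 and XTH31 at -1.50 are the extremes of the right panel.

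Of 12 genes that make xyloglucan, the polymer on which XTHs act, 8 were measured; 1 was higher in root, 1 in flower bud and 6 in neither, with a median size of the difference of 0.60. That is 25.0% called, beside 51.4% of all models with a median size of 1.08. CSLC12, of the family that builds the glucan backbone, had levels of -1.10, -1.26, -1.14 and -2.11 in root and of 2.84 and 2.88 in flower bud. It was 19.3-fold higher in flower bud, at -4.27 ± 0.30 (adjusted p = 2.37e-05). The other backbone genes CSLC4, CSLC6 and CSLC5 were at 0.07 ± 0.12, 0.08 ± 0.12 and -0.84 ± 0.42, with no call. CSLC5 was faint: it was well above background on 2 of 4 root arrays, and the 2 arrays of flower bud sample B read -7.12 and -5.17. XXT5, a xylosyltransferase of the side chains, had levels of 1.33, 1.39, 1.39 and 0.93 in root and of 0.10 and 0.19 in flower bud. It was 2.17-fold higher in root, at 1.12 ± 0.17 (adjusted p = 0.00122). XXT2, also a xylosyltransferase, MUR3, which adds galactose, and FUT1, which adds fucose, were at 0.47, 0.41 and 0.72 and were not called. Of 9 further codes of expansins and XTHs, 2 were measured. XTH11 was higher in flower bud, with levels of -6.69 to -5.88 in root and of 1.37 and 1.68 in flower bud, at -7.84 ± 0.24 (adjusted p = 5.01e-07), and XTH10 was at -0.69 ± 0.19 (adjusted p = 0.0148), under 2-fold. Of 3 genes that trim xyloglucan side chains, 0 were measured.

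**Figure D5:**
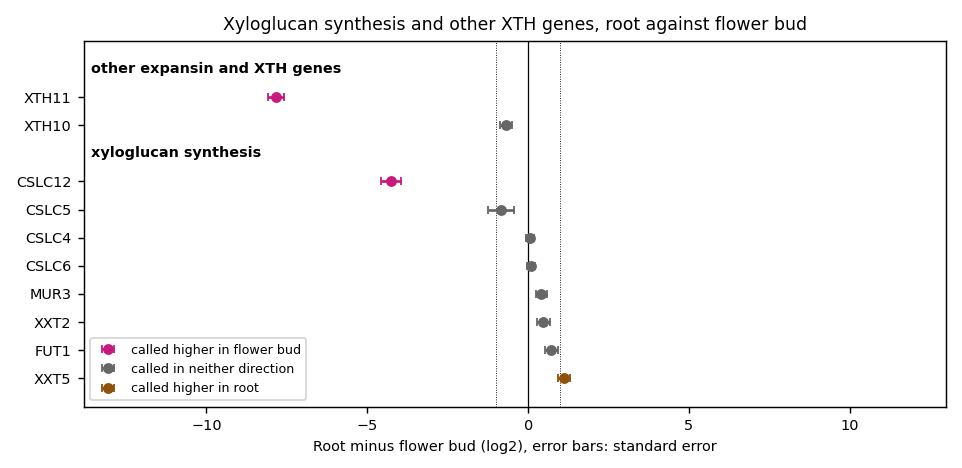
Root minus flower bud difference (log2, horizontal axis) with its standard error (n = 4 root and 2 flower bud samples) for 2 XTH genes outside the main list and 8 genes of xyloglucan synthesis; dotted lines mark 2-fold. All synthesis genes but CSLC12 and XXT5 lie between the dotted lines, and CSLC12 at -4.27 and XTH11 at -7.84 lie far to the left.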

How the data were processed

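Per the labels, total RNA of 4 root and 4 flower bud replicates was extracted with Triazol, purified on Rneasy columns and labelled with Cy3. The scanner files hold a spot intensity that, per the file headers, Agilent Feature Extraction 10.10.1.1 had corrected for background and for trends across the array; arrays had not been scaled to each other. In the authors' deposited table of log2 values, each array tracked its own scanner values, scaled to the 75th percentile and centred per model, at r of at least 0.999998. Its scale and direction are thereby known, and the authors' steps are not stated. The median of a column ranged from -0.05 to 0.09.

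Log2 signals were averaged over a probe's spots without outlier spots, and each array's 75th percentile of all probes but controls was subtracted. A model with 2 probes was represented by the brighter one. A model was tested if well above background (at least 0.5 of its spots) on all arrays of at least 1 tissue. A lower bound sets the bright tissue against, per array, the higher of the model's own signal and the lowest signal well above background. Tissues were compared with limma 3.58.1 (lmFit, eBayes) in R 4.3.3 over 26420 models, with Benjamini-Hochberg adjustment over all of them; tests were two-sided. No list was tested as a set. The fits were tested on simulated data. Array values were read with Python 3.11.15, pandas 2.3.3 and numpy 2.4.6.

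The members, lists and alternatives were chosen with earlier results of these data known. All members are named; values on every sample are given for the 3 called models with the largest difference, or bound, in each direction of each class. Of the xyloglucan and further XTH genes every measured one is named, with levels for the 2 largest calls in each direction. Of the 36 model names, 0 were found in the RefSeq gene table, so gene symbols follow the A. thaliana codes in the names.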

Additional observations from a re-analysis of the deposited data

Results flagged for a closer look

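Among 46 gene models screened over the 4 root replicates, 4 had 1 root sample far from the other 3, and chance alone marks about 1 in 20. In all 4 it was root replicate 4, which was farthest from the root median for 52.9% of all models. The screen was not run over all models, so the share flagged among them is not known here. XTH7 stood at 3.95 there, with a median of 5.24 in the others, and XTH28 at 2.07 with a median of 1.57. Of the xyloglucan synthesis genes, XXT5 stood at 0.93 with a median of 1.39 in the others, and CSLC12 at -2.11 with a median of -1.14. Flower bud, with 2 samples, was not screened.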

How the results depend on the processing

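Of 569 values of single members under the alternative settings, 556 kept their direction and their side of the threshold, 7 were no longer called and 6 had the opposite sign. Of the 31 called members 27 kept their call in every setting in which they were tested, and EXPA13, EXLA2, XTH25 and XTH33 lost it in at least 1; of the 5 uncalled members 0 were called in any. For 7 members near background in 1 tissue, the setting restricted to models well above background on all arrays gave no value. Members called higher in root numbered 19 to 20 over the settings that kept all 36, and members higher in flower bud 9 to 11. The median difference of the members (1.98) was 1.91 with normexp, 1.92 with quantile normalization, 2.26 with equal medians, 1.30 with spike-in scaling and 1.40 over the 29 models well above background on all 8 arrays. Leaving out 1 root replicate gave 1.88 to 2.01 for it, and leaving out flower bud sample A or B gave 1.60 and 2.14. The median of all models shifted by 0.13 with quantile normalization, 0.28 with equal medians and -0.68 with spike-in scaling. The median of the members followed under the latter 2 settings and moved the other way under quantile normalization. Of all calls 53.9% were higher in flower bud, but 72.7% with spike-in scaling (3958 models higher in root and 10536 in flower bud); over the 21733 models well above background on all arrays, 4391 calls were towards flower bud and 4910 towards root. The 6 values of opposite sign belonged to members that were not called: EXPA4 at 0.055 with equal medians, XTH9 at -0.46 with spike-in scaling and -0.14 without sample A, XTH30 at -0.069 with quantile normalization and -0.55 with spike-in scaling, and XTH27 at -0.063 with spike-in scaling. With all 8 arrays as separate samples and the replicate number as a block, the calls of members were again 20 towards root and 11 towards flower bud, and their median was 1.98. Same-numbered root and flower bud arrays did not deviate together (r from -0.06 to 0.04). Of the root replicates, 1 of 4 correlated best with its own number. In flower bud, however, the arrays of sample A were nearly alike, and so were those of sample B. Their deviations thus hold little beyond the contrast of A with B. Whether the replicate numbers pair the samples could therefore not be decided by this check. Folds of models near background in 1 tissue are limited by signal over background. Slide and scan could not be blocked, since there was 1 of each.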
